A study of Mus musculus with 12 samples.

Results

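The hypoxia-inducible factors (HIFs) and their regulators were followed through primary fibroblasts of mouse skeletal muscle treated with aldosterone, spironolactone or vehicle. The 9 genes were taken by symbol from the deposited tables: *Hif3a*, *Hif1a*, *Epas1*, *Arnt*, *Egln1*, *Egln2*, *Egln3*, *Vhl* and *Vegfa*, of 28995 genes present in at least 1 table. All 9 were present in all 3 tables. The family was chosen by the difference in *Hif3a* between aldosterone and vehicle in these same libraries, so everything the 9 genes show in an aldosterone comparison is a description, given with no p-value.

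The cells came from the hindlimb muscle of 2 wild-type C57BL/10 mice at postnatal day 3, were enriched by adherence and used at passage 2. They were kept in charcoal-stripped serum, which removes steroids, for a day before treatment. They then received 1 µM aldosterone, the main mineralocorticoid, 1 µM spironolactone, an antagonist of the mineralocorticoid receptor, or the solvent DMSO as vehicle for 48 hours. Each group had 4 poly(A) RNA libraries, from 2 replicate plates of each mouse, so p-values rest on 2 animals. No low-oxygen group and no group given both compounds is analysed here. Each library is called here by its label's sample number and biological replicate number (1_1, 1_2, 2_1, 2_2); the labels do not say which number is the mouse.

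HIFs are transcription factors made of an oxygen-labile alpha subunit and a constant beta subunit. *Hif1a* and *Epas1* (HIF-2α) encode the main activating alpha subunits, *Hif3a* encodes another alpha subunit with several isoforms, some of which inhibit the others, and *Arnt* encodes HIF-1β. In oxygen, the prolyl hydroxylases encoded by *Egln1*, *Egln2* and *Egln3* mark the alpha subunits for the ubiquitin ligase subunit encoded by *Vhl*, so that HIF activity is set largely at the protein level, which RNA does not measure. *Vegfa*, an endothelial growth factor, is a classic HIF target, and *Egln3* is both a regulator and a target.

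Libraries held 19136923 to 30219185 reads on genes, and totals did not separate the groups (exact two-sided permutation tests, p = 0.543 for aldosterone and 0.657 for spironolactone against vehicle). Fibroblast markers dominated, with *Pdgfra*, the receptor that marks these cells in muscle, at 3226 ± 206 scaled reads (SD, n = 4) in vehicle. The 8 fibroblast markers, mostly the collagens *Col1a1* and *Col1a2*, summed to 940764 to 1038201 in vehicle, 784131 to 882666 in aldosterone and 864160 to 975940 in spironolactone libraries, so that aldosterone lay below vehicle without overlap. *Col1a1* differed from vehicle by -0.34 ± 0.11 (SE) on the log2 scale and missed the test in limma (adjusted p = 0.0527), and it passed with edgeR, with DESeq2 and with the sample number as a block. Scaled reads are the recovered reads of a library divided by its relative depth (TMM), so that all 12 libraries share 1 scale. Some markers of other cells had group means under 10 scaled reads. Among them were *Pax7*, *Myod1*, *Myf5* and *Myog* of muscle precursors, *Adgre1* and *Ptprc* of macrophages, and *Pecam1*, *Cldn5* and *Tie1* of endothelium. These were picked for their low values, and their whole lists held more reads. Summed over whole lists, per library, the pericyte and smooth muscle markers came to 8101 to 14146, the macrophage list to 235 to 325, the Schwann cell list to 246 to 470, the endothelial list to 424 to 630 and the myogenic list to 67.1 to 142. The 4 adipocyte markers summed to 30.0 to 98.1 in vehicle, 119 to 230 in aldosterone and 32.1 to 137 in spironolactone libraries. *Plin1*, which coats lipid droplets, was the adipocyte marker past the test for aldosterone against vehicle (log2 difference 1.78 ± 0.30 SE, adjusted p = 0.000619), and the other markers past it were *Pdgfra* (0.91 ± 0.06) and *Ly6a* (1.02 ± 0.10) of the fibroblast list and *S100b* (0.50 ± 0.12) of the Schwann cell list. Their part in the results was not tested. In bulk RNA, fewer cells of a type and less RNA per cell cannot be told apart.

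The promoters of the members that differed between groups are shown first, since steroid or hypoxia motifs there are what a reader would look for. RefSeq windows of 300 bases, from 250 before to 50 after an annotated start (build GRCm38.p6), were matched by symbol for 8 of the 9 members, with 10 windows in all. *Epas1* was not matched. The 250 bases before the start of 4 members are printed 5′ to 3′ on the strand of the gene, with capitals marking ACGTG or GCGTG, the core of the hypoxia response element, on either strand.
Hif3a promoter, chr7:17062428-17062677: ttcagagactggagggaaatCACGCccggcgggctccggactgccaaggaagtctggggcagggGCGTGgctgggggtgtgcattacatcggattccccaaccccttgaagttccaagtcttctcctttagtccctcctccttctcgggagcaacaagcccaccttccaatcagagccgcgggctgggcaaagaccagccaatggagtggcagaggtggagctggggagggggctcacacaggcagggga
Egln3 promoter, chr12:54203875-54204124: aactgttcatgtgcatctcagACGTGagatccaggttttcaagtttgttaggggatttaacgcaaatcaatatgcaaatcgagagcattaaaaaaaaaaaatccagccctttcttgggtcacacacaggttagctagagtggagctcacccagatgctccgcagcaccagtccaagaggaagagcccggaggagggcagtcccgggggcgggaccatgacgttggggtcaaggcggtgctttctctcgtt
Hif1a promoter, chr12:73907617-73907866: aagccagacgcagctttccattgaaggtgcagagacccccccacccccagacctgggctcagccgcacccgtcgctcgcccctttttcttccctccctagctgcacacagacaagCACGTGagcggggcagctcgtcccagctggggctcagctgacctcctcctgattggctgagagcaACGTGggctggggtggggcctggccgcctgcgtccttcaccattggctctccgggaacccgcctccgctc
Vegfa promoter, chr17:46032378-46032627: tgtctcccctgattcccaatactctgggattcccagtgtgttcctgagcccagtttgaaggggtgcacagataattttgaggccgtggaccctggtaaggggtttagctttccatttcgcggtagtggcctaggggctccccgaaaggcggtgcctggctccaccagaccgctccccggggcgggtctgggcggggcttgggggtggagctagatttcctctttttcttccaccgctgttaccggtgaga

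The hypoxia core was found in 8 of the 10 windows, and in 43.8% of all 32851 promoter windows. The *Hif3a* window held it 2 times, starting at bases -230 and -186 from the start, with the first of these on the opposite strand. The *Egln3* window held it at base -229. In *Hif1a* the motif at -135 was also the palindrome CACGTG, an E box, which contains the hypoxia core on both strands, and a further core lay at -70. E boxes were in 2 of the 10 windows, *Hif1a* and *Egln2*, and in 7.15% of all windows. The most upstream *Vegfa* start had no core in its window. The steroid receptor motif AGAACA, searched on both strands, was in 0 of the 10 windows and in 19.0% of all windows. A match here is a match of letters, and its absence says only that these letters are not in the window.

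*Hif3a* had the largest difference of the 9 members between aldosterone and the other treatments. In the files' build (mm39 by the submitters' processing notes) the gene lies on the minus strand of chromosome 7 from 16765432 to 16796352. The study's methods name mm9 instead, but of 20676 genes matched by identifier to an mm9 annotation only 4, and none of the 9 members, had the same position there. Its recovered reads were 2, 3, 7 and 0 in the vehicle libraries and 3, 8, 1 and 5 in the spironolactone libraries. The aldosterone libraries had 425, 574, 621 and 664 reads. In scaled reads this was 3.35 ± 3.77 (SD, n = 4) in vehicle, 564 ± 19.1 in aldosterone and 3.97 ± 2.36 in spironolactone. The aldosterone libraries sat far above all 8 others, and the other groups overlapped. Summed over libraries, 2284 reads against 12 gave a depth-corrected ratio of 182 to vehicle, with a 95% interval of 104 to 352, and 2284 against 17 gave 135 to spironolactone (84.0 to 232). These exact binomial intervals cover counting error only. The vehicle library at 0 reads allows up to 3 reads. On the log2(normalized count + 1) scale the difference from vehicle was 7.44 ± 0.46 (SE), a size that depends on the pseudocount at so low a baseline.

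Among the 4 aldosterone libraries *Hif3a* had a coefficient of variation of 3.38%. Over the other members it ran from 1.37% for *Arnt* to 14.6% for *Egln3*. Gene-level values do not tell its isoforms apart, so activating and inhibiting forms cannot be told apart either. The unnamed transcript 4833404L02Rik, inside the gene on the opposite strand, was at 0 in all vehicle and spironolactone libraries and at 0.945 to 4.89 scaled reads in the aldosterone libraries. Since the strand setting of the counting is not given in the sources used here, those reads cannot be told apart from *Hif3a*.

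**Figure D1:**
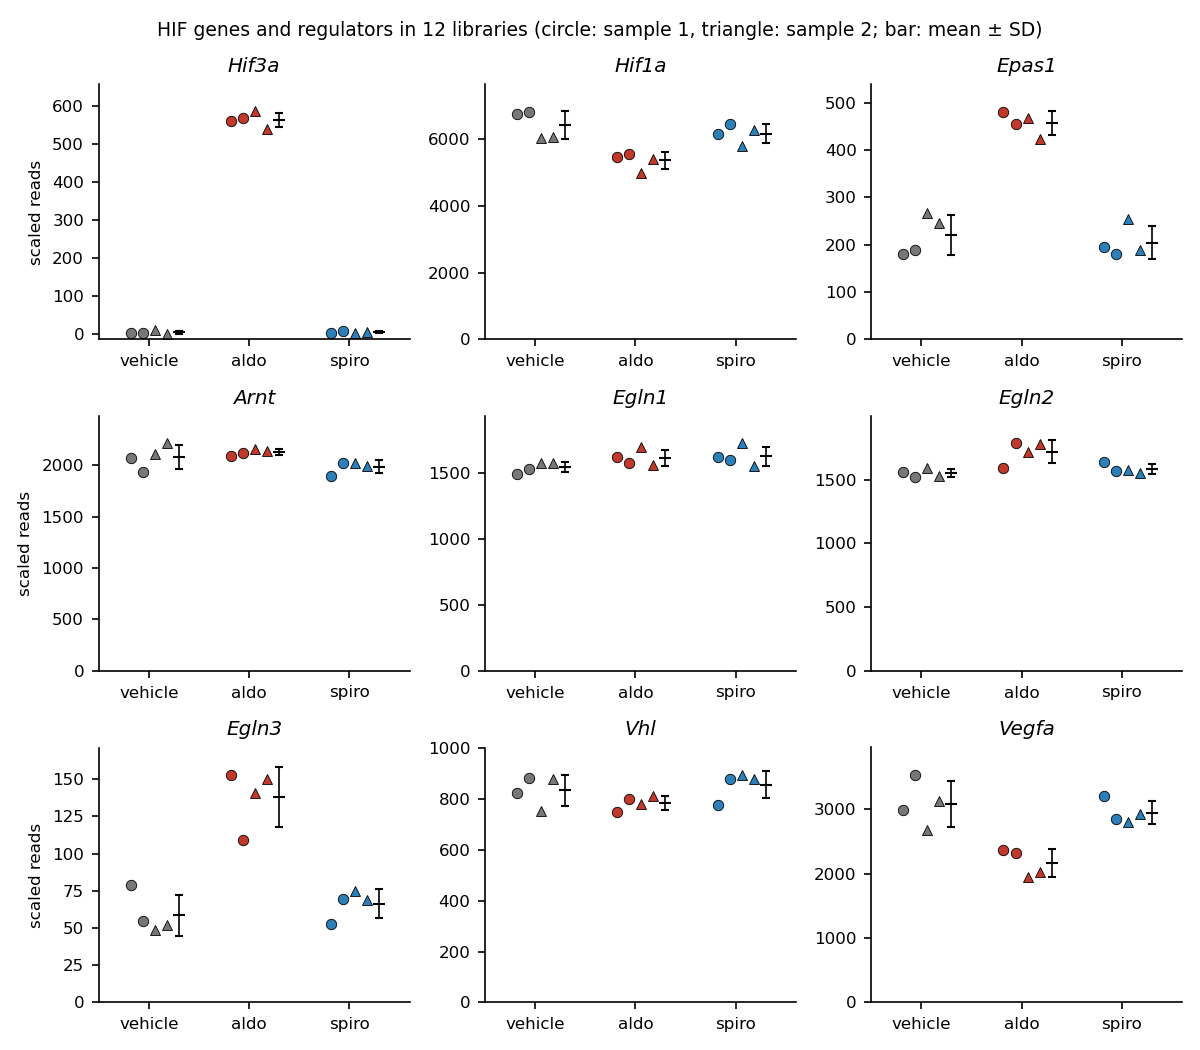
Scaled reads (y axis, from 0, *Hif3a* with a small margin) of each of the 9 genes in the 12 libraries, by treatment, with circles for sample number 1, triangles for sample number 2 and the mean ± SD beside them. *Hif3a* is near 0 outside aldosterone, *Epas1* and *Egln3* are higher and *Hif1a* and *Vegfa* lower in all 4 aldosterone libraries, and *Arnt*, *Egln1* and *Vhl* overlap between aldosterone and vehicle.

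*Epas1*, which encodes HIF-2α, was the alpha subunit gene with the next largest difference. Its scaled reads were 180, 190, 267 and 247 in the vehicle libraries and 195, 179, 255 and 190 in the spironolactone libraries (both in the order 1_1, 1_2, 2_1, 2_2). The aldosterone libraries had 481, 456, 468 and 423. Every aldosterone library was above every other library, and the log2 difference was 1.06 ± 0.12 (SE) from vehicle and 1.17 ± 0.11 from spironolactone. Within vehicle both sample 2 libraries were above both sample 1 libraries, which was not the case in aldosterone.

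*Hif1a*, by far the most abundant of the alpha subunit genes, was lower. Vehicle libraries had 6738, 6813, 6043 and 6065 scaled reads. Spironolactone libraries had 6146, 6450, 5786 and 6268, and aldosterone libraries 5475, 5560, 4983 and 5405. The aldosterone libraries lay below all 8 others, which overlapped between vehicle and spironolactone, and the mean fell by 16.5% from that of vehicle (log2 difference -0.26 ± 0.06 SE) and by 13.1% from that of spironolactone (-0.20 ± 0.06). The lncRNA Gm15283 on the opposite strand across *Hif1a* had 15.5 to 36.0 scaled reads per library.

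The balance of the 3 alpha subunit transcripts was compared per kb of gene length, since the genes differ in length. In vehicle, *Hif1a* had 1088 ± 70.9 scaled reads per kb, *Epas1* 39.5 ± 7.59 and *Hif3a* 0.50 ± 0.56 (SD, n = 4). In aldosterone the values were 908 ± 43.5, 81.7 ± 4.49 and 84.0 ± 2.84, so that *Hif3a* and *Epas1* stood at about the same level, within their spread. *Hif3a* made up 7.84% ± 0.51 of alpha subunit transcript in aldosterone, 0.045% ± 0.053 in vehicle and 0.0538% ± 0.0307 in spironolactone. *Hif1a* went from 96.4% ± 0.89 in vehicle to 84.5% ± 0.99 in aldosterone, and the groups did not overlap. The sum of the 3 genes did overlap, at 1073 to 1190 per kb in vehicle, 1016 to 1109 in aldosterone and 1027 to 1127 in spironolactone. The composition therefore differed, while the total overlapped only when the sample number was ignored or within sample 2. Within sample 1 the sum was 1175 and 1190 per kb in vehicle and 1098 and 1109 in aldosterone, without overlap. Within sample 2 it was 1074.0 and 1072.7 in vehicle and 1016.5 and 1072.8 in aldosterone, a narrow overlap. Whether the total differed between aldosterone and vehicle was not tested.

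**Figure D2:**
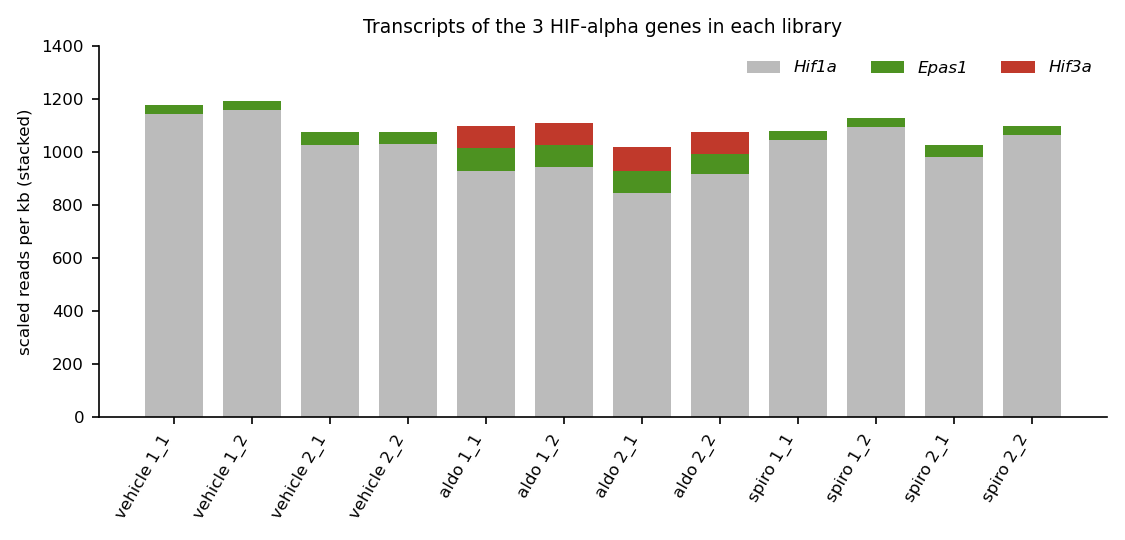
Stacked bars of scaled reads per kb for *Hif1a*, *Epas1* and *Hif3a* (y axis, from 0) in each of the 12 libraries, 1 bar a library. The *Hif3a* segment is visible in the 4 aldosterone bars, where it makes up 7.51% to 8.60% of the bar, and the height of the bars overlaps between groups.

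The beta subunit gene *Arnt* had 1934 to 2213 scaled reads in vehicle, 2086 to 2154 in aldosterone and 1891 to 2026 in spironolactone. Its log2 difference was 0.03 ± 0.06 (SE) from vehicle and 0.10 ± 0.05 from spironolactone. Alpha subunit transcript per *Arnt* transcript, per kb, was 4.36 ± 0.47 (SD, n = 4) in vehicle, 4.05 ± 0.20 in aldosterone and 4.37 ± 0.22 in spironolactone. The aldosterone and vehicle libraries overlapped in this ratio when the sample number was ignored. Within sample 1 the ratio was 4.55 and 4.93 in vehicle and 4.22 and 4.19 in aldosterone, without overlap. Within sample 2 it was 4.07 and 3.88 in vehicle and 3.78 and 4.02 in aldosterone, which overlapped. Whether the ratio differed between aldosterone and vehicle was not tested.

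Of the prolyl hydroxylase genes, *Egln3* was higher with aldosterone. It had 79.0, 55.0, 48.5 and 52.0 scaled reads in vehicle and 52.4, 69.3, 74.6 and 69.1 in spironolactone. Aldosterone libraries had 153, 109, 141 and 150, all above the other 8 libraries. The log2 difference was 1.23 ± 0.18 (SE) from vehicle and 1.05 ± 0.16 from spironolactone. *Egln3* remained the least abundant of the 3, at 51.9 ± 7.55 scaled reads per kb in aldosterone against 450 ± 17.3 for *Egln1* and 614 ± 32.2 for *Egln2*, and it went from 2.19% ± 0.53 of hydroxylase transcript in vehicle to 4.66% ± 0.72.

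*Egln1*, the main oxygen sensor of the family, had 1498 to 1580 scaled reads in vehicle and 1564 to 1703 in aldosterone, which overlapped (log2 difference 0.06 ± 0.06 SE). *Egln2* had 1521 to 1589 in vehicle and 1590 to 1785 in aldosterone. Those groups were separated by a narrow gap, with a log2 difference of 0.14 ± 0.06. It was not among the genes past the test without a block, and it was with the sample number as a block. *Vhl* had 754 to 883 scaled reads in vehicle and 748 to 811 in aldosterone, and the log2 difference was -0.09 ± 0.07. Neither hydroxylase nor *Vhl* moved by more than 11% in the mean. The sum of the 3 *Egln* genes per kb was 990 to 1025 in vehicle and 1077 to 1140 in aldosterone, without overlap.

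*Vegfa* was lower with aldosterone. Vehicle libraries had 2983, 3535, 2676 and 3135 scaled reads and spironolactone libraries 3206, 2857, 2804 and 2932. Aldosterone libraries had 2363, 2328, 1950 and 2022, all below the other 8. The mean fell by 29.7% from that of vehicle (log2 difference -0.51 ± 0.08 SE) and by 26.6% from that of spironolactone (-0.45 ± 0.07). *Vegfa* and *Egln3*, both known as HIF targets, thus differed from vehicle in opposite directions.

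With limma and a Benjamini-Hochberg threshold of 0.05, whatever the fold, 5 of the 9 members were called against vehicle, beside 10.4% of all genes. The 3 that were higher (*Hif3a*, *Epas1*, *Egln3*) stand beside 5.68% of genes higher, and the 2 that were lower (*Hif1a*, *Vegfa*) beside 4.74% lower. A log2 difference of at least 1 in addition was met by the same 3 higher members, beside 2.06% of genes. Against spironolactone, which shares the aldosterone libraries, the same 5 were called with the same directions, beside 8.88% of genes called, 4.93% higher and 3.96% lower. Nothing is read from these counts, since the family was selected on these libraries. The fits used no filter on low values. Under a minimum mean of 10 all 9 members were kept against vehicle, *Hif3a* through its aldosterone libraries alone, and it was dropped from spironolactone against vehicle. The call of *Hif1a* was lost on leaving out vehicle 1_1, vehicle 1_2, aldosterone 2_1 or aldosterone 2_2, with log2 differences between -0.29 and -0.23 over all alternatives.

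Spironolactone against vehicle is a comparison that did not choose the family, though it shares the vehicle libraries with the one that did. None of the 9 members passed (adjusted p 0.934 to 0.975), and 0% of the 27598 genes did, with 1251 genes at an unadjusted p under 0.05. edgeR called 0 genes and DESeq2 13, none of them a member. *Hif3a* differed by 0.47 ± 0.65 (SE) on the log2 scale, and 2 SE to either side ran from -0.84 to 1.78, so a moderate change at this low level was not detectable. The better measured members had narrower intervals, from -0.17 to 0.05 for *Hif1a*, from -0.39 to 0.17 for *Epas1*, from -0.22 to 0.59 for *Egln3* and from -0.21 to 0.08 for *Vegfa*. Of 7 sums and shares tested by exact two-sided permutation, the smallest p was 0.0571 (adjusted 0.40), for the summed *Egln* transcripts per kb, which were 1006 ± 14.6 in vehicle and 1043 ± 26.0 in spironolactone (SD, n = 4 each). The smallest p this test allows is 0.0286, since it exchanged libraries freely and took no account of the sample number.

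**Figure D3:**
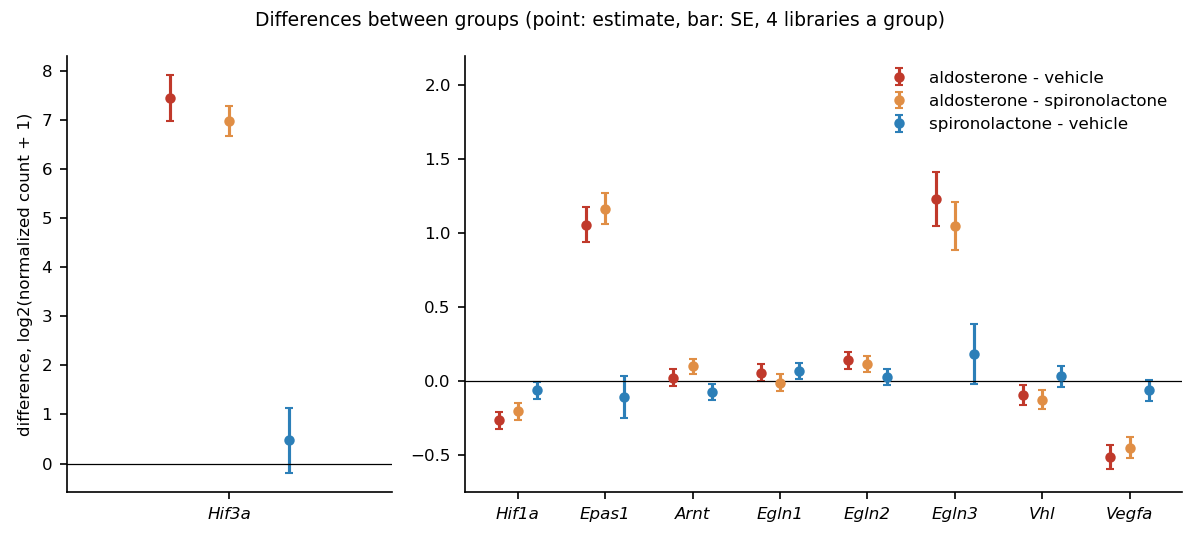
Differences between group means on the log2(normalized count + 1) scale (y axis, points with SE bars, 4 libraries a group) for the 9 genes, with *Hif3a* on an axis of its own. Both aldosterone comparisons, which share the aldosterone libraries, lie well away from 0 for *Hif3a*, *Epas1*, *Egln3* and *Vegfa*, and spironolactone against vehicle lies near 0.

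The sample number of the labels also went with some members. With treatment as a term over all 12 libraries, a comparison added after the data were seen, sample 2 was lower than sample 1 in *Hif1a* (log2 difference -0.10 ± 0.03 SE, adjusted p = 0.0377) and in *Vegfa* (-0.16 ± 0.05, adjusted p = 0.0194). Of all 28995 genes 10.7% passed this test, and 2 of the 9 members. *Epas1* differed by 0.21 ± 0.08 the other way and did not pass (adjusted p = 0.127). Within each sample number the aldosterone libraries of *Hif1a*, *Epas1* and *Vegfa* still lay wholly outside the vehicle libraries, since the groups did not overlap at all.

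By profile over the 12 libraries (Pearson r of log2 CPM among 15766 genes, with no p), the 5 genes most like *Hif3a* were *Smim1* (r = 0.989), *Maoa* (0.988), *Ndrg2* (0.988), *Klf6* (0.987) and *Ifngr1* (0.987). *Ndrg2* went from 77.0 ± 8.01 scaled reads in vehicle to 1322 ± 92.8 in aldosterone and 92.4 ± 7.03 in spironolactone (SD, n = 4). *Maoa*, which encodes monoamine oxidase A, went from 1552 ± 59.7 to 2458 ± 85.5. *Vegfa* was most like *Uggt2* (0.986), *Neto2* (0.977), *Man2a1* (0.976), *Whrn* (0.973) and *Xpot* (0.971). *Uggt2*, a glycoprotein folding sensor, had 1944 ± 127 in vehicle and 1581 ± 112 in aldosterone. The 12 points share their treatment groups, so a step between aldosterone and the other groups alone gives a high r.

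The rest of the pathway was followed through 6 lists of 95 genes in the tables, none of them a member. Against vehicle 18 of the 95 rose and 8 fell, beside 5.68% of all genes higher and 4.74% lower. The median log2 difference was 0.03 beside -0.01 over all genes. The same shares stand beside the vehicle counts of each list below. They cover genes at any level, while 92 of the 95 list genes had a mean of at least 10. Since the lists were written with earlier results known, nothing is read from the counts. With the sample number as a block 28 rose and 16 fell, where 4563 of all genes were called in place of 2847. Against spironolactone 15 rose and 5 fell (14 fell with the block), beside 4.93% of all genes higher and 3.96% lower. In spironolactone against vehicle 0 passed in limma without the block, 0 in edgeR, 0 in DESeq2 and 1, *Ahr*, with the block. By list, the genes that moved against vehicle ran from 1 of 20 for glycolysis to 6 of 9 for the VEGF family, beside 10.4% of all genes.

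**Figure D4:**
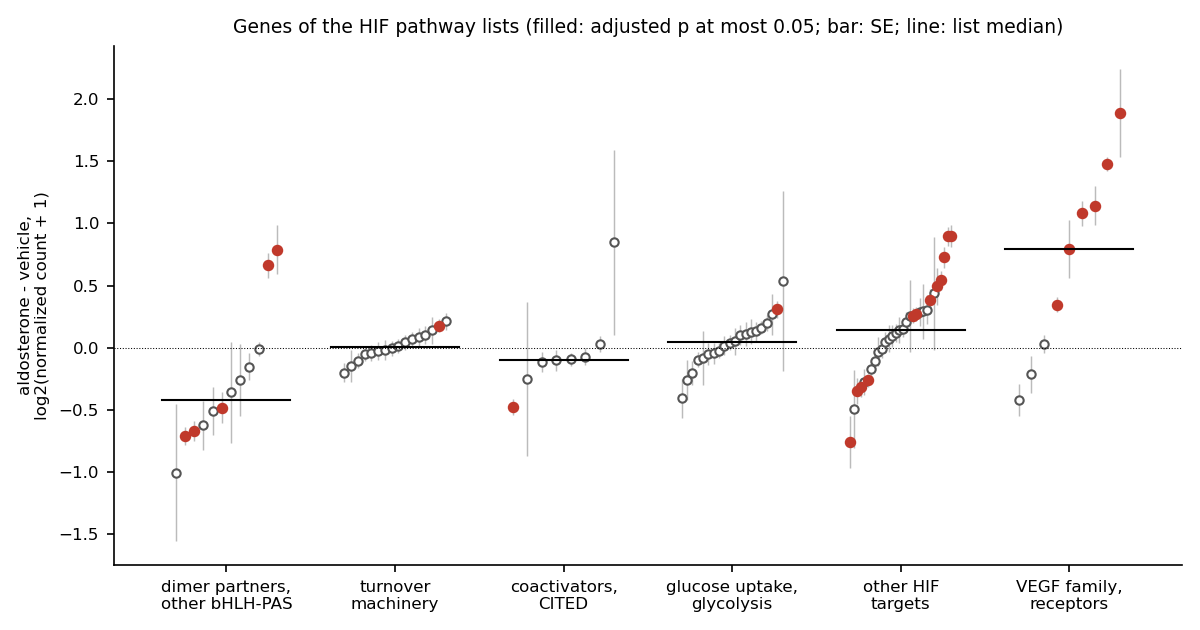
Aldosterone minus vehicle on the log2(normalized count + 1) scale (y axis, points with SE bars) for the genes of the 6 pathway lists, each sorted by value, filled where the adjusted p was at most 0.05, with a line at the list's median. The VEGF family has the highest median (0.79), glycolysis and turnover sit near 0, and the bHLH-PAS genes have filled points on both sides.

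Among VEGF ligands and receptors other than *Vegfa*, 6 of 9 rose against vehicle and 0 fell (1 with the sample number as a block), with a median log2 difference of 0.79. *Vegfd*, a ligand of the lymphatic receptor and the most abundant gene of this list per kb, had 3114, 2935, 2666 and 2944 scaled reads in vehicle and 8324, 8253, 7630 and 8265 in aldosterone. All aldosterone libraries were far above, with a log2 difference of 1.47 ± 0.06 (SE, adjusted p = 4.57e-11). *Kdr*, the main signalling receptor for VEGF-A, had 53.2, 76.0, 33.5 and 22.1 in vehicle and 245, 240, 109 and 96.1 in aldosterone (1.88 ± 0.35, adjusted p = 0.00183). Its aldosterone libraries were uneven by sample number but all above vehicle. Its call was lost on leaving out any vehicle library but 1_2 or any aldosterone library but 2_2, with adjusted p up to 0.0921. *Flt1*, a VEGF receptor that also acts as a decoy, had 130, 120, 83.2 and 111 in vehicle and 318, 238, 227 and 206 in aldosterone, a log2 difference of 1.14 ± 0.16 (adjusted p = 0.000103).

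The other 3 that rose were named after their values were seen. *Vegfc*, the second lymphatic ligand, went from 139 ± 6.71 to 296 ± 28.0 (1.08 ± 0.10 SE, adjusted p = 1.77e-06). *Nrp1*, a coreceptor, rose by 0.35 ± 0.06 (adjusted p = 0.00102) and *Flt4*, the lymphatic receptor, by 0.79 ± 0.23 at only 29.9 to 52.9 scaled reads in the means (adjusted p = 0.0398). The call of *Flt4* was lost on leaving out any vehicle library but 2_1 or any aldosterone library but 2_1. Against spironolactone *Flt4* did not pass in any setting. *Vegfb*, *Pgf* and *Nrp2* did not pass, with log2 differences of 0.03 ± 0.07, -0.21 ± 0.15 and -0.42 ± 0.13 (adjusted p = 0.0502 for *Nrp2*). *Nrp2* passed as lower with the sample number as a block (adjusted p = 2.71e-09) and with a pseudocount of 0.5, and its adjusted p ran up to 0.355 over the other alternatives. In the ligands, then, *Vegfc* and *Vegfd* were higher while *Vegfa* was lower in the same libraries. Against spironolactone 5 of the 9 rose, with *Vegfd* at 1.54 (adjusted p = 2.32e-11).

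*Kdr*, *Flt1* and *Flt4* are known mainly from endothelium, so the endothelial markers stand beside them. The 7 markers summed to 460 to 507 scaled reads in vehicle and 527 to 630 in aldosterone, which did not overlap. Most of that sum was *Tek* (455 ± 24.8 and 537 ± 42.8, adjusted p = 0.0694). Of the other markers, *Pecam1* was at 6.73 in vehicle and 2.94 in aldosterone. *Cdh5* was at 9.73 and 15.6, and *Cldn5* at 0.277 and 0.204. The median log2 difference of the 7 markers was 0.23. Whether endothelial cells were the source of the receptor reads was not tested. None of the 7 passed the test in limma, and *Tek* passed with the sample number as a block (adjusted p = 0.0147) and with edgeR (0.0473) and DESeq2 (0.044).

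**Figure D5:**
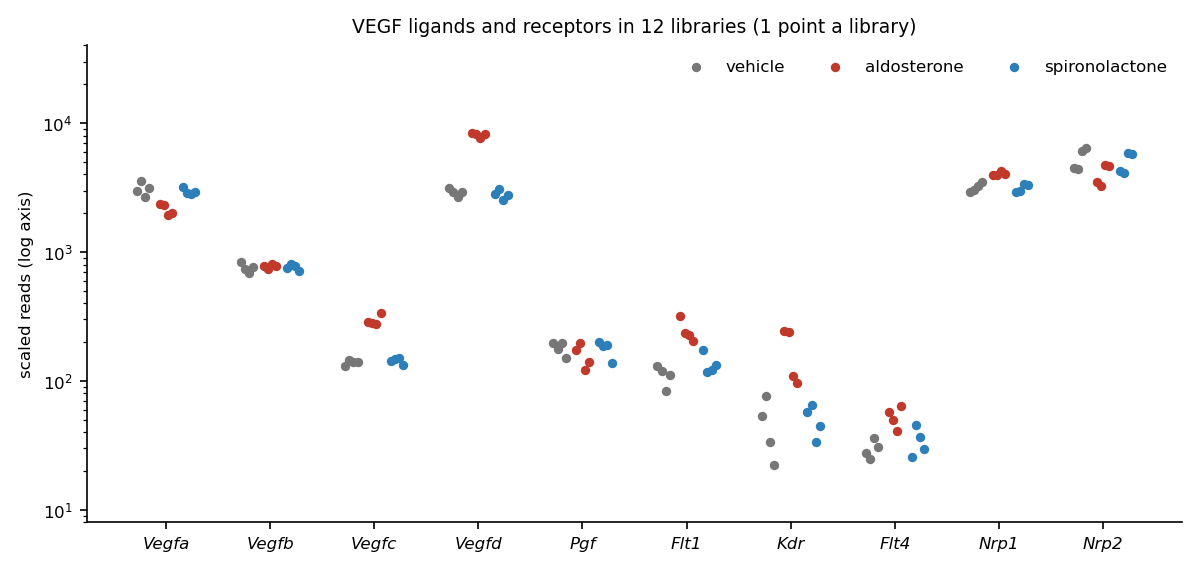
Scaled reads on a log axis (y) of 10 VEGF ligand and receptor genes in the 12 libraries, 1 point a library, coloured by treatment. *Vegfc*, *Vegfd*, *Flt1* and *Kdr* are higher in the 4 aldosterone libraries than in vehicle, and *Vegfa* is lower.

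Of 20 measured genes of glucose uptake and glycolysis, the classic HIF-1 programme, 1 rose and 0 fell against vehicle, with a median log2 difference of 0.05. The gene was *Pfkp*, a phosphofructokinase (0.31 ± 0.07 SE, adjusted p = 0.00779), whose call was lost on leaving out vehicle 2_1, vehicle 2_2, aldosterone 1_1 or aldosterone 1_2. *Aldoa*, the most abundant per kb, had a difference of 0.13 ± 0.08 (adjusted p = 0.363), and passed with the sample number as a block (0.0264). Its symbol stands in 2 rows, and the one with more reads was used. The glucose transporter gene *Slc2a1* (-0.05 ± 0.09), *Ldha* (-0.04 ± 0.09) and *Pdk1* (-0.10 ± 0.06) also did not pass. *Gapdh* had 146, 3047, 124 and 131 scaled reads in the aldosterone libraries. It has many near-identical pseudogenes and its value here is uncertain. With the sample number as a block 5 rose and 3 fell.

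Of 30 other HIF targets 8 rose and 4 fell, with a median log2 difference of 0.15. *Adm*, the vasodilator peptide adrenomedullin, had 1842, 2171, 2277 and 2329 scaled reads in vehicle and 3675, 4433, 3881 and 4074 in aldosterone (0.89 ± 0.08 SE, adjusted p = 4.12e-07). *Ppp1r3c*, which targets a phosphatase to glycogen, had 342, 312, 291 and 262 in vehicle and 560, 545, 563 and 579 in aldosterone (0.90 ± 0.09, adjusted p = 2.36e-06). *Bnip3*, a mitophagy receptor, had 797, 803, 906 and 689 in vehicle and 1191, 1293, 1328 and 1488 in aldosterone (0.73 ± 0.08, adjusted p = 1.82e-05). For all 3 genes the aldosterone libraries lay above every vehicle library.

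The 3 largest falls in this list held under fewer alternatives. *Car9*, carbonic anhydrase IX, fell by 0.76 on the log2 scale (SE 0.21, adjusted p = 0.0284) at 100.4 ± 21.6 scaled reads in vehicle and 59.4 ± 13.3 in aldosterone, and leaving out any of the 8 libraries took the call away. Against spironolactone *Car9* passed only with DESeq2 and with the sample number as a block. *Cxcl12* fell by 0.35 (SE 0.10, adjusted p = 0.0439), and was called in 4 of 14 alternatives. It had 4952, 4942, 5239 and 4979 scaled reads in vehicle and 3263, 3376, 4472 and 5028 in aldosterone. The aldosterone and vehicle libraries of sample 2 thus overlapped. Against spironolactone *Cxcl12* passed only with the sample number as a block. *Bhlhe40*, a repressor that is part of the circadian clock, fell by 0.32 (SE 0.08, adjusted p = 0.0116), a call lost without vehicle 1_1 or aldosterone 1_2. *Lox*, the collagen cross-linking enzyme and the most abundant of the list per kb, had a difference of 0.31 ± 0.11 (adjusted p = 0.115), and passed with DESeq2 and with the block. With the block 13 rose and 6 fell. The collagen prolyl 4-hydroxylase subunits, singled out after their values were seen, moved apart: *P4ha2* rose by 0.54 ± 0.08 (adjusted p = 0.00017) and *P4ha1* fell by 0.26 (SE 0.05, adjusted p = 0.00269).

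Among 12 dimer partners and other bHLH-PAS genes, the wider family to which the HIFs belong, 2 rose and 3 fell, with a median log2 difference of -0.42. *Ahr*, the dioxin receptor, which competes for *Arnt* and was the most abundant per kb, had 3874, 3752, 4310 and 4425 scaled reads in vehicle and 2368, 2282, 2780 and 2618 in aldosterone (-0.71 ± 0.07 SE, adjusted p = 3.49e-06). Its spironolactone libraries had 3347, 3138, 3890 and 4037, below the vehicle libraries of the same sample number. Spironolactone against vehicle did not pass for *Ahr* in limma without a block (-0.19 ± 0.08, adjusted p = 0.934). It passed as lower with the sample number as a block (adjusted p = 0.0241). *Arnt2*, a paralogue of *Arnt*, fell by 0.67 (SE 0.08, adjusted p = 1.70e-05) and *Sim2* by 0.48 (SE 0.13, adjusted p = 0.0201). Against spironolactone *Arnt2* passed (-0.61 ± 0.07, adjusted p = 1.93e-05). *Sim2* did not pass there (-0.26 ± 0.13, adjusted p = 0.286), nor in any alternative. The clock genes *Bmal1* and *Npas2*, whose products pair with each other, rose by 0.66 ± 0.10 (adjusted p = 0.000219) and 0.79 ± 0.20 (adjusted p = 0.0162). The clock partner *Clock* did not pass (-0.01 ± 0.06). The calls of *Sim2* and *Npas2* were each lost in 6 of the 8 settings that leave out 1 library, with adjusted p up to 0.104 and 0.107.

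The remaining lists hold genes that turn over HIF-α proteins and genes of their coactivators and competitors. Of 16 turnover genes 1 rose and 0 fell, with a median log2 difference close to 0. It was *Os9*, whose product binds HIF-1α and the hydroxylases (0.18 ± 0.05 SE, adjusted p = 0.043), a call lost in 7 of the 8 settings that leave out 1 library. Against spironolactone *Os9* did not pass (0.18 ± 0.06, adjusted p = 0.06), and it passed in 4 of 14 alternatives. *Hsp90ab1*, the chaperone most abundant here per kb, had a difference of 0.01 ± 0.06, and the asparaginyl hydroxylase gene *Hif1an* -0.05 ± 0.05. Of 8 coactivators and competitors 0 rose and 1 fell. That was *Cited2*, whose product competes with HIF-1α for the coactivator p300, at 6576, 6886, 6278 and 6836 scaled reads in vehicle and 5119, 5112, 4693 and 4307 in aldosterone (-0.47 ± 0.06, adjusted p = 7.82e-05). The gene of p300 itself, *Ep300*, differed by -0.09 ± 0.05 and did not pass.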

How the data were processed

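Poly(A) RNA of neonatal hindlimb fibroblasts was sequenced in 12 libraries, 4 each of vehicle, aldosterone and spironolactone. The authors deposited 1 table per pair of treatments, holding signal values, namely per-gene counts scaled by the size factor of the library (normalized counts). Per the labels' processing notes, reads were aligned with HISAT2 2.0.5 to mm39 and counted with featureCounts 1.5.0-p3. The strand setting is not given in the sources used here. The tables' columns of the authors' own comparisons (group means, log2 fold changes, p-values) were not used.

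Whole reads were recovered from the steps of each column (100% of values within 0.01 of a whole multiple) and gave totals of 19136923 to 30219185. Levels are recovered reads scaled by TMM over 12 libraries. Differences are limma 3.58.1 (R 4.3.3) fits with a variance trend on log2(normalized count + 1), treatment as the only term, and Benjamini-Hochberg adjustment over all genes of the table. Calls are at an adjusted p of at most 0.05. The methods of the study used DESeq2, which is an alternative here, as the files hold no counts.

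The members and lists were chosen with earlier results of these data known. The text names, for each list, at most the 3 called genes that rose most and the 3 that fell most (minimum mean of 10), plus the gene most abundant per kb. Genes named outside this rule were picked with their values in view, and the text says so or gives them only as values beside the rest. Likeness used log2 CPM with a prior count of 2. Promoters are RefSeq windows of GRCm38.p6, not the build of the files.

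Libraries of the same sample number deviated together across treatments (24 pairs, correlation of deviations from group means 0.11 to 0.27), so the sample number pairs the libraries. Fits with it as a block were compared. The other alternatives were edgeR 4.0.16 and DESeq2 1.42.0 on recovered reads, TMM scaling, a pseudocount of 0.5, a mean of at least 10 and leaving out each library. In simulated data of aldosterone against vehicle and of spironolactone against vehicle, the limma, edgeR and DESeq2 tests were checked for known changes. Those changes were large and the simulated libraries held no sample number effect. The check therefore does not cover smaller changes or paired libraries.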

Additional observations from a re-analysis of the deposited data

Results flagged for a closer look

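Among 27 sets of 4 libraries (9 genes in 3 treatments), 1 held a library far from the others. *Vhl* in spironolactone replicate 1_1 had 776 scaled reads, below 877 to 895 in the other 3, and its gap to the nearest was 0.848 of the group's range. Chance alone gives about 1 such flag in 20 sets.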

How the results depend on the processing

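Directions and calls of *Hif3a*, *Epas1*, *Egln3* and *Vegfa* were the same under all 14 alternatives in both aldosterone comparisons, and no called gene named here changed direction. The alternatives refit the libraries on which the family was chosen, so they show dependence on processing only. Counts moved most. With a replicate block on the sample number, genes called at any fold went from 2847 to 4563 against vehicle and from 2454 to 3974 against spironolactone, list genes that rose against vehicle from 18 to 28, and those that fell from 8 to 16 against vehicle and from 5 to 14 against spironolactone. In spironolactone against vehicle, the block gave 97 genes at any fold, 2 lower past both thresholds and 1 list gene lower, and DESeq2 gave 13 genes, where limma without a block gave 0. Leaving out 1 library gave 1766 to 2246 genes against vehicle and 1565 to 1865 against spironolactone, 116 to 162 genes lower past both thresholds against vehicle (182 with all libraries), and 11 to 16 list genes that rose and 4 to 7 that fell. The cause of these shifts was not tested, beyond the fewer samples in the last. *Hif1a* against spironolactone lost its call in 7 of the 8 settings that leave out 1 library. Without division by gene length, *Hif3a* was 8.86% of alpha subunit transcript in aldosterone in place of 7.84%. Depth limits *Hif3a* outside aldosterone, where 0 to 8 reads per library allow no fine comparison.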
